A study of Mus musculus with 8 samples.

Results

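The aryl hydrocarbon receptor (AhR) and its targets were followed in mouse embryonic fibroblasts (MEFs) exposed to RHPS4, through 9 of the 24460 genes in the count files. The 9 genes were taken by name: the receptor Ahr, its partner Arnt, its repressor Ahrr, and the targets Cyp1a1, Cyp1b1, Tiparp, Aldh3a1, Nqo1 and Adh7. The genes were chosen by their measured counts across the 3 doses as well as by their role, so the levels and fold changes of these genes across dose are a description, and no p-value is given for them. RNA-Seq was performed on wild-type MEFs left without drug (0 µM, 3 libraries) or grown with 2 µM RHPS4 (3 libraries) or 10 µM RHPS4 (2 libraries). RHPS4 is a positively charged small molecule that binds G-quadruplexes (G4), four-stranded structures of G-rich nucleic acid. All libraries came from the same kind of cell in the same glucose- and pyruvate-containing medium. The labels do not say which of the exposure times used in the study applies to the RNA-Seq libraries, nor whether the replicates were separate cultures, so that p-values measure only the spread between these samples.

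AhR is a ligand-activated transcription factor of the bHLH-PAS family that is held in the cytosol by HSP90 and co-chaperones until a planar aromatic compound binds it. The bound receptor enters the nucleus, pairs with ARNT and binds the xenobiotic response element, whose core is GCGTG, in front of genes for enzymes that oxidize and conjugate foreign compounds. AHRR and TIPARP, both products of target genes, act back on the receptor and damp its activity.

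Libraries held between 10455965 and 26688121 counts. A level is given in CPM, the gene's counts in every 1000000 counts of a library after TMM normalization, and values for single libraries are given in the order of the replicate numbers. The smallest level that 3 counts could show was between 0.112 and 0.287 per 1000000 total counts, before TMM. After TMM it was 0.119 CPM in the third and 0.311 CPM in the first untreated library. This floor covers counting error only, as PCR copies are not independent molecules. The first 0 µM library differed from the other untreated libraries by a chi-square of 15.4 and 20.2 per degree of freedom, whereas these differed from each other by 3.23. Within the treated groups the values were 3.91 to 10.6 at 2 µM and 8.63 at 10 µM. The share of counts on mtDNA was between 13.2 and 14.4% in the untreated libraries, between 7.40 and 8.26% in the 2 µM libraries and between 5.33 and 6.32% in the 10 µM libraries. The 10 fibroblast markers summed to between 13970 and 14412 CPM without drug, between 12750 and 12980 CPM with 2 µM and between 12389 and 12714 CPM with 10 µM, and 1 of them, Pdgfrb, was lower at 10 µM (log2 −0.60, adjusted p = 0.000248, edgeR's quasi-likelihood test). The part of this shift in the results below was not tested. Over all libraries the 6 epithelial markers summed to between 2.59 and 5.24 CPM, the 5 endothelial markers to between 4.40 and 6.73 up to 2 µM and between 6.76 and 7.61 at 10 µM, the 6 blood cell markers to between 6.73 and 11.1, and the 4 liver markers to at most 1.22 CPM. In bulk RNA, fewer cells of a type and less RNA per cell cannot be told apart.

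The sequence before the start site is shown for 5 of the genes, because the receptor's core motif lies there in 4 of them and is missing from that of Nqo1. The sequences are from RefSeq (GRCm38.p6) and cover the 250 bases before the start, written 5′ to 3′ on the strand of the gene. The GENCODE gene of Tiparp begins inside its window and that of Cyp1a1 begins further upstream. Capitals mark GCGTG, or CACGC where the core is on the other strand.
Cyp1b1 (chr17:79715062-79715311, - strand): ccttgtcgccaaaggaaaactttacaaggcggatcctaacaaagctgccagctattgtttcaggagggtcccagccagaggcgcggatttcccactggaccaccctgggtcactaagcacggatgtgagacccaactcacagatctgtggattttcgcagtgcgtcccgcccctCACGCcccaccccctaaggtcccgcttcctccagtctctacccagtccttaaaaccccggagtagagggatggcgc
Tiparp (chr3:65528197-65528446, + strand): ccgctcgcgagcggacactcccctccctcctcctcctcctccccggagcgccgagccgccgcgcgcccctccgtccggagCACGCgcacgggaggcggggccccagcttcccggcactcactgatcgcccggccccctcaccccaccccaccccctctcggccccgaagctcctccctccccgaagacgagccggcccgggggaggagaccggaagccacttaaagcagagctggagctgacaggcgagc
Cyp1a1 (chr9:57697363-57697612, + strand): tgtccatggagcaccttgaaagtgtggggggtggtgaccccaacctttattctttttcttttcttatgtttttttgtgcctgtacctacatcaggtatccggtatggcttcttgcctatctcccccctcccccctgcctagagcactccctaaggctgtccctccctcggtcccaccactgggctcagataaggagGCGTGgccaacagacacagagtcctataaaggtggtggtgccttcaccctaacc
Ahrr (chr13:74292332-74292581, - strand): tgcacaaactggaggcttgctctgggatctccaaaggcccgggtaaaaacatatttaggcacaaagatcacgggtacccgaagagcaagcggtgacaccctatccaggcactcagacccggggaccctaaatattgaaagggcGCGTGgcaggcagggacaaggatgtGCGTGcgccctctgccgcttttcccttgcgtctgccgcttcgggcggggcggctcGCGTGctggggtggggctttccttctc
Nqo1 (chr8:107403206-107403455, - strand): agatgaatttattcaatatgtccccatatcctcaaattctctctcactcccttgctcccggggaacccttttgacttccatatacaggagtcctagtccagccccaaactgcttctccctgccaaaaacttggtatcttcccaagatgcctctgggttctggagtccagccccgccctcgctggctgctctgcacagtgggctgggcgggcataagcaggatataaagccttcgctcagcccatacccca

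RefSeq promoters were found for 7 of the 9 genes, not for Ahr and Aldh3a1. In the window from 250 bases before to 50 bases after the start, 6 of these 7 held GCGTG on either strand, compared with 32.4% of all 32851 promoters and 48.8% of the 13632 promoters of the genes tested here. Cyp1a1 held the core once, with its first base at −54, and Arnt held it once at −29. Ahrr held it 3 times, at −107, −82 and −27. In Adh7 the only core lay behind the start site, at 13, and in Nqo1 there was none in this window. The longer form TNGCGTG, which contains the core, was found in Ahrr and Adh7, in 5.07% of all promoters and in 7.57% of those of the tested genes. The antioxidant response element form TGACNNNGC, through which NRF2 acts, was found in this window in Arnt alone. It was found in 12.4% of all promoters and in 14.0% of those of the tested genes. Sequence outside the window was not searched, so a missing match does not mean that a gene lacks the element.

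A G4 motif (4 runs of at least 3 G with 1 to 7 bases between runs, either strand) was found in 2 of the 7 promoters, those of Cyp1b1 and Tiparp, compared with 18.6% of all promoters and 27.3% of those of the tested genes. In Cyp1b1 the first G4 motif spanned −85 to −63 on the other strand, and the core at −76 to −72 lay inside it. Matches that overlap this motif reached to −54. In Tiparp the first G4 motif ran from −123 to −96 and the core stood apart from it, at −170 to −166. These are matches of letters, and no binding was measured.

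The level of the receptor itself at 2 µM was within its untreated range. Ahr (ENSMUSG00000019256, chromosome 12, 35497974 to 35535038 of GRCm38) was at 17.8, 19.8 and 17.4 CPM without drug, at 18.9, 17.9 and 18.6 CPM at 2 µM and at 22.9 and 22.6 CPM at 10 µM. The 2 µM libraries lay among the untreated ones, and both 10 µM libraries lay above all others. The log2 fold change was 0.01 (standard error 0.0868) at 2 µM and 0.31 (standard error 0.0941) at 10 µM, below the 1.5-fold threshold that was set for a differentially expressed gene (DEG).

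Arnt (ENSMUSG00000015522, chromosome 3, 95434388 to 95497240), which encodes the partner that AhR shares with the hypoxia-inducible factors, had a wide spread among replicates, with a coefficient of variation of 34.0% at 0 µM, 25.6% at 2 µM and 18.7% at 10 µM. Its level was 37.2, 68.3 and 76.1 CPM at 0 µM, 30.2, 39.2 and 50.6 CPM at 2 µM and 51.9 and 39.8 CPM at 10 µM. The groups overlapped in every comparison, and the first untreated library was low. The log2 fold change was −0.61 (standard error 0.238) at 2 µM and −0.42 (standard error 0.265) at 10 µM, and −0.83 and −0.68 without the first untreated library. Arnt did not pass the DEG threshold in any comparison or alternative.

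Ahrr (ENSMUSG00000021575, chromosome 13, 74211118 to 74292331), the repressor that competes with AhR for ARNT, was barely detected, with 4 to 12 counts per library. It was at 0.622, 0.396 and 0.238 CPM at 0 µM, at 0.352, 0.570 and 0.415 CPM at 2 µM and at 0.488 and 0.862 CPM at 10 µM. The groups overlapped. Pooled over libraries, its share of counts at 10 µM was 2.10 times that at 0 µM, with an exact 95% counting interval of 1.07 to 4.11, and it did not pass the filter on low counts. The interval covers counting error only. As Ahrr was not in the main fit, whether a change of this size exceeds the spread between libraries was not tested.

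The P450 target Cyp1b1 (ENSMUSG00000024087, chromosome 17, 79701537 to 79715061), a hydroxylase of estradiol and polycyclic hydrocarbons, was the member with the most counts. It was found at 104, 92.9 and 97.3 CPM at 0 µM, at 224, 220 and 265 CPM at 2 µM and at 348 and 379 CPM at 10 µM. The 3 dose groups were fully separated. The fold change at 10 µM was 3.71 (log2 1.89, standard error 0.0951), and from 2 to 10 µM it was 1.53 (log2 0.62, standard error 0.0943).

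Cyp1a1 (ENSMUSG00000032315, chromosome 9, 57687928 to 57703824), the classic readout of receptor activation, rested on few counts. The untreated libraries held 4, 2 and 10 counts, the 2 µM libraries 7, 10 and 12, and the 10 µM libraries 34 and 30, that is 0.414, 0.0989 and 0.396 CPM, then 0.616, 0.814 and 0.712 CPM, then 2.07 and 2.15 CPM. Each dose group lay above the one before. Pooled over libraries, its share of counts was 2.60 times higher at 2 µM than at 0 µM (exact 95% counting interval 1.36 to 5.12) and 8.40 times higher at 10 µM (4.80 to 15.6). Its fitted log2 fold change was 2.83 (standard error 0.379) at 10 µM and 1.28 (standard error 0.444) at 2 µM, where it was not a DEG. No untreated library, 1 of the 3 libraries at 2 µM and both at 10 µM reached the level that the filter on low counts asks for, so that Cyp1a1 was tested through the group in which it is high.

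Tiparp (ENSMUSG00000034640, chromosome 3, 65528410 to 65555518) encodes a mono-ADP-ribosyltransferase that modifies AhR and limits its activity. It was at 91.3, 79.2 and 85.7 CPM at 0 µM, at 154, 153 and 148 CPM at 2 µM and at 177 and 177 CPM at 10 µM. The doses did not overlap, and the step from 2 to 10 µM was small. Its log2 fold change was 0.83 (standard error 0.0703) at 2 µM, 1.06 (standard error 0.0767) at 10 µM and 0.22 (standard error 0.0769) between the doses.

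Aldh3a1 (ENSMUSG00000019102, chromosome 11, 61207537 to 61218421), an aldehyde dehydrogenase, started from a low level. It was at 0.932, 0.989 and 0.911 CPM at 0 µM, at 2.55, 2.28 and 2.08 CPM at 2 µM and at 5.67 and 6.32 CPM at 10 µM, from 9 to 93 counts per library. The groups were separated. The untreated spread was narrow (coefficient of variation 4.27%), but it came from 9, 20 and 23 counts and is not read as precision. The fold change was 2.40 at 2 µM (log2 1.26, standard error 0.206) and 6.29 at 10 µM (log2 2.65, standard error 0.186).

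Nqo1 (ENSMUSG00000003849, chromosome 8, 107388225 to 107403206), a quinone reductase known as a target of both AhR and NRF2, was at 48.7, 38.2 and 38.2 CPM at 0 µM, at 70.5, 69.4 and 71.5 CPM at 2 µM and at 98.0 and 107 CPM at 10 µM. The first untreated library was the highest of its group but lay below all treated ones. The log2 fold change was 0.77 (standard error 0.0958) at 2 µM and 1.31 (standard error 0.104) at 10 µM, and 0.89 and 1.40 without the first untreated library. From 2 to 10 µM the fold change was 1.45 (log2 0.54, standard error 0.103), just under the threshold, whereas Adh7 and Cyp1b1 were just over it with folds of 1.53 and 1.53.

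Adh7 (ENSMUSG00000055301, chromosome 3, 138217760 to 138233382), an alcohol dehydrogenase that also oxidizes retinol, was at 23.8, 27.1 and 23.8 CPM at 0 µM, at 45.8, 48.5 and 38.7 CPM at 2 µM and at 63.8 and 71.7 CPM at 10 µM. The groups were separated, and among the treated libraries the lowest was the third of 2 µM. Its log2 fold change was 0.83 (standard error 0.102) at 2 µM and 1.44 (standard error 0.110) at 10 µM. An antisense gene, 0610031O16Rik, overlaps 108 bases of its exons (2.85%), and 4931440P22Rik on the other strand overlaps 223 bases of those of Tiparp (5.12%). As the strand setting of the counting was not given in the sources used here, reads there could not be assigned with certainty.

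**Figure D1:**
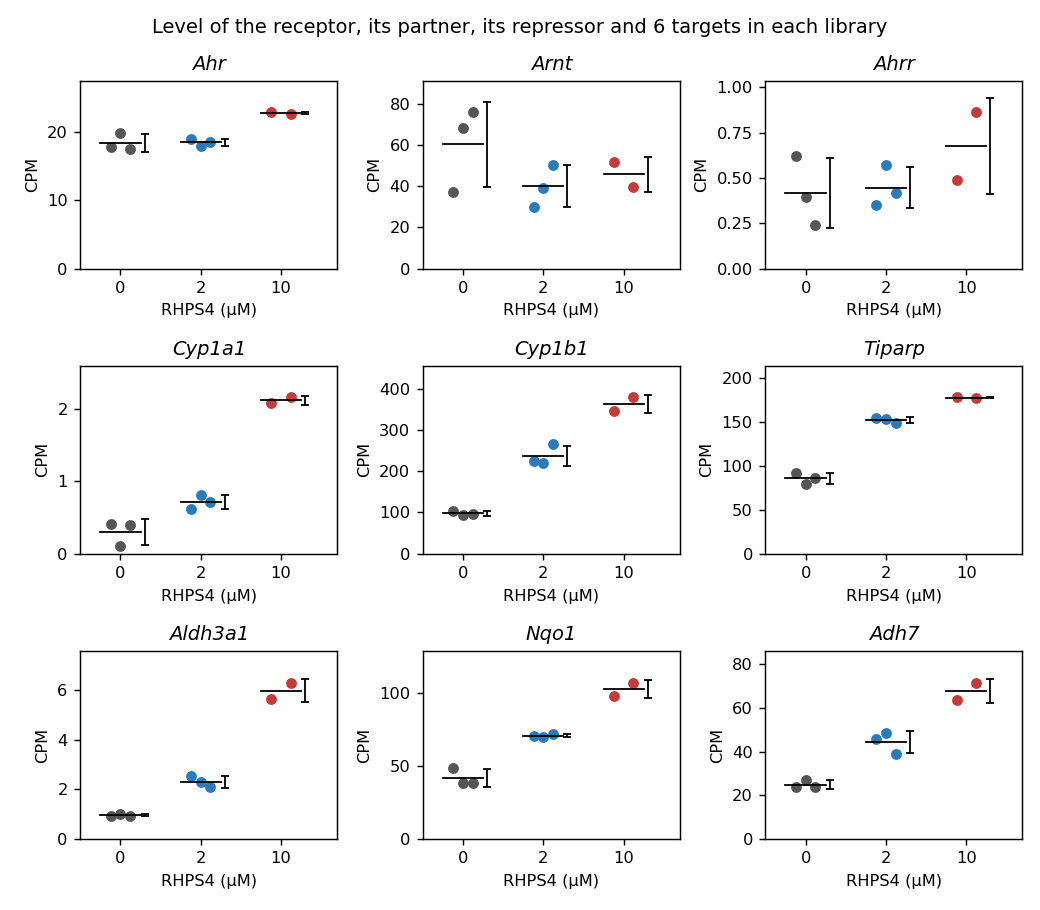
CPM of the 9 genes (y axes, from 0) against RHPS4 dose (x axes). Each point is 1 library, the horizontal line is the mean and the bar beside it is the SD (n = 3, 3 and 2). The 6 targets step up with dose without overlap, Ahr is higher at 10 µM alone, and the groups overlap in Arnt and Ahrr.

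Among the 9 genes, 5 passed the DEG threshold (adjusted p under 0.01 in edgeR's quasi-likelihood test and a fold change over 1.5) at 2 µM, all of them higher: Cyp1b1, Tiparp, Aldh3a1, Nqo1 and Adh7. Over all 14296 genes tested, 0.497% passed it in either direction and 0.119% as higher. At 10 µM there were 6, Cyp1a1 being the sixth, against 3.09% of all genes (1.95% as higher). Between 10 and 2 µM there were 4, namely Cyp1a1, Cyp1b1, Aldh3a1 and Adh7, against 5.51% (3.92% as higher). As the choice of genes used these contrasts, nothing is read from these counts. In 6 of the 8 tested members every 2 µM library lay above every untreated one, as in 12.7% of all genes. In 7 of 8 every 10 µM library did so, as in 22.9% of all genes, and in 7 of 8 every 10 µM library lay above every 2 µM one, as in 27% of all genes.

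At 10 µM 6 members were called whichever library was left out, and 4 with at least 10 counts asked of every library, which removes Cyp1a1 and Aldh3a1. The calls at 2 µM and between the doses depended on single libraries. At 2 µM, 2 members, Cyp1b1 and Tiparp, remained when the second or the third untreated library, or the first or the second 2 µM library, was left out, and 3 remained without the third 2 µM library. The call of Aldh3a1 at 2 µM was also lost with the DESeq2 prior, with a replicate block and with only the 2 groups compared. Between the doses, 1 member, Aldh3a1, remained without the second 10 µM library and 2 without any of the 2 µM libraries. The directions of these fold changes were the same throughout. Leaving out the first untreated library gave 5, 6 and 3 calls. With total counts in place of TMM, the median log2 fold change of all genes moved from 0.02 to 0.23 at 10 µM and the share of DEGs that were higher moved from 63.1 to 92.5% (46.6% with DESeq2 and 49.1% without the filter), whereas Cyp1b1 moved from 1.89 to 2.11 and Ahr from 0.31 to 0.52. When TMM was taken over nuclear genes alone, the 10 µM log2 fold change was 1.89 for Cyp1b1, 1.31 for Nqo1 and 1.44 for Adh7, the same to 2 decimals as with TMM over all genes.

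**Figure D2:**
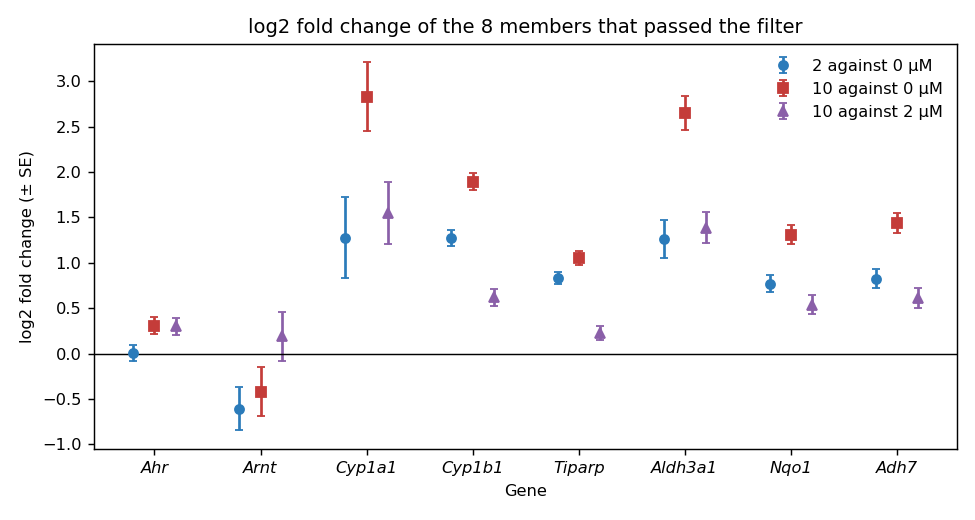
log2 fold change with its standard error (y axis) of the 8 members that passed the filter (x axis), for 3 comparisons. The 6 targets lie above 0 in all of them, from 0.22 for Tiparp between the doses to 2.83 for Cyp1a1 at 10 µM, and Arnt has the widest error of the abundant genes.

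For each target, the share of its 10 µM change that was already present at 2 µM is given as a description. Tiparp reached 78.7% of its 10 µM log2 fold change at 2 µM (78.0 to 82.2% over the 8 fits with a library left out), and Cyp1b1 67.4% (63.4 to 71.4%). Nqo1 stood at 58.8% (56.7 to 64.1%) and Adh7 at 57.4% (52.7 to 65.0%). Aldh3a1 reached 47.7% (45.0 to 51.2%) and Cyp1a1 45.2% (35.1 to 53.3%). The ranges of Tiparp and Cyp1b1 did not overlap each other, and those of the other 4 lay below the range of Tiparp. These ranges come from leaving out single libraries and are not confidence intervals. As the members were chosen on these doses, nothing is read from the order of these shares, and differences between them were not tested. Both doses share the untreated libraries, so these ratios are not independent of them.

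Profiles were compared as the root mean square difference, over the 5 treated libraries, of log2 CPM relative to the gene's own untreated mean. Nqo1 and Adh7 differed by 0.156, Tiparp and Nqo1 by 0.172 and Cyp1a1 and Aldh3a1 by 0.198, which were the closest pairs. Cyp1b1 was at 0.434 from Cyp1a1, 0.436 from Aldh3a1 and 0.489 from Adh7. As the members were chosen on these doses, nothing is read from their nearness to each other. Of the 8972 tested genes with a mean of at least 10 CPM, the nearest to Nqo1 outside the members was Krt80, a keratin, at 0.307, followed by Gsdmd (0.350), Stc2 (0.375), Scn3a (0.378) and Il7 (0.388). The nearest to Cyp1b1 was Cth, the cystathionine γ-lyase gene, at 0.711, followed by Krt80 (0.738), Chac1 (0.832), Gsdmd (0.850) and Vldlr (0.854).

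**Figure D3:**
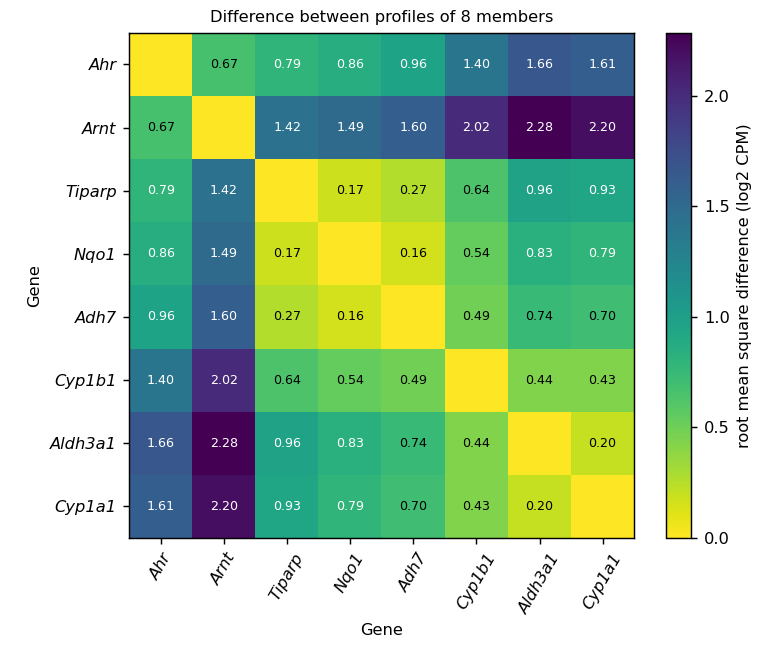
Root mean square difference in log2 CPM, relative to the untreated mean and over 5 treated libraries, for each pair of 8 members (both axes), with the values printed in the cells. Tiparp, Nqo1 and Adh7 lie at 0.16 to 0.27 from each other, Cyp1a1 and Aldh3a1 at 0.20, and Cyp1b1 at 0.43 to 0.64 from the other 5 targets.

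Per kilobase of exon, Nqo1 had the highest level of the 9 genes at 0 µM, with 26.8 ± 3.90 CPM per kb (SD, n = 3), before Tiparp with 19.6 ± 1.38 and Cyp1b1 with 16.8 ± 0.927. At 10 µM, Nqo1 stood at 66.0 ± 4.06 (SD, n = 2) and Cyp1b1 at 62.2 ± 3.85, and their libraries overlapped, as they did at 2 µM. Tiparp was lower than both, at 40.7 ± 0.0416. Adh7 was at 6.57 ± 0.493 without drug and at 17.9 ± 1.47 at 10 µM. Ahr stayed between 2.98 ± 0.205 at 0 µM and 3.69 ± 0.0269 at 10 µM. The lowest were Aldh3a1 (0.486 ± 0.0208 to 3.09 ± 0.237), Cyp1a1 (0.109 ± 0.0636 to 0.758 ± 0.0208) and Ahrr (0.0443 ± 0.0204 to 0.0715 ± 0.0280). At 0 µM Arnt overlapped Adh7, and Cyp1a1 overlapped Ahrr.

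The relatives Aldh3a2, Nqo2 and Adh5 had smaller log2 fold changes than Aldh3a1, Nqo1 and Adh7 in both doses. As Aldh3a1, Nqo1 and Adh7 were chosen by their counts across these doses, nothing is read from this contrast or from the ratios below. Aldh3a2, the microsomal relative of Aldh3a1, had a log2 fold change of 0.55 at 10 µM (adjusted p = 0.00148 in edgeR's quasi-likelihood test), under the fold threshold, and was 0.61 higher at 10 than at 2 µM (adjusted p = 0.000588). The count ratio of Aldh3a1 to Aldh3a2 within a library was −4.76 ± 0.0277 in log2 (SD, n = 3) without drug, −3.45 ± 0.171 at 2 µM and −2.69 ± 0.0691 (n = 2) at 10 µM, and the groups did not overlap. For Nqo1 to Nqo2, it went from −0.36 ± 0.166 through 0.48 ± 0.0852 to 1.26 ± 0.193, and for Adh7 to Adh5 from −1.88 ± 0.150 through −1.25 ± 0.147 to −0.66 ± 0.0445. Nqo2 (log2 −0.31, adjusted p = 0.0408) and Adh5 (0.23, adjusted p = 0.0643) were not DEGs at 10 µM. Of the ribosyltransferases related to Tiparp, Parp9 (0.81), Parp10 (0.98) and Parp14 (0.96) rose at 10 µM (adjusted p = 0.00221, 6.91e-05 and 0.000351, edgeR's quasi-likelihood test). These were 3 of the 13 tested relatives, beside 1.95% of all genes, and 6 of the 13 were higher at 10 than at 2 µM, beside 3.92%. At 2 µM none of the 13 was a DEG by edgeR, beside 0.497% of all genes, and DESeq2 called 1. An unadjusted p under 0.05 was given by edgeR for 3 of them. The share of all genes at that unadjusted cut is not given, here or below, so nothing is read from such counts. Parp9 was no longer a DEG at 10 µM without the second or the third untreated library or either 10 µM library, and Parp14 became one at 2 µM (log2 −0.61 over all libraries) without the first untreated library. Parp12 (0.67) and Aldh3b1 (0.88) passed between the doses alone (adjusted p = 0.00106 and 0.00674, edgeR). These calls were lost without the first 10 µM library for Parp12, without the second untreated, any 2 µM or the second 10 µM library for Aldh3b1, and without the first or the second untreated, the second 2 µM or the second 10 µM library for Aldh3a2. The call of Aldh3a2 was also lost with DESeq2, with or without its prior, and without a filter, and that of Parp12 with the DESeq2 prior. Parp3, Parp8, Parp11, Parp16 and Adh1 were not called, with values at 10 µM from −0.01 to 0.40.

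None of the other members of the bHLH-PAS family that passed the filter (9 of 13) was a DEG in any comparison by edgeR or DESeq2. With 0.497%, 3.09% and 5.51% of all genes called, a DEG count of 0 in a list of this size is near the background. For 2 against 0, 10 against 0 and 10 against 2 µM, edgeR gave 2, 0 and 2 with an unadjusted p under 0.05. These unadjusted counts have no share of all genes beside them. At 10 µM, Hif1a was at 0.04, Arnt2 at 0.25, Arntl at −0.07, Arntl2 at −0.08, Clock at −0.13, Npas3 at 0.40, Npas4 at −0.47, Hif3a at 0.08 and Sim1 at 0.12 on the log2 scale. At 2 µM the values ran from −0.57 for Arntl2 (adjusted p = 0.0446, edgeR) to 0.17 for Clock. Arntl2 was 0.50 higher at 10 than at 2 µM (adjusted p = 0.0411, edgeR). The 15 chaperones, co-regulators and transport factors of the receptor complex had no DEG in any comparison by either tool. A DEG count of 0 is again near the background of 0.497%, 3.09% and 5.51% of all genes. In edgeR's test, 2, 4 and 6 of the 15 had an unadjusted p under 0.05. The share of all genes at that cut is not given, so nothing is read from these counts. The median log2 fold change of the 15 at 10 µM was −0.14, beside 0.02 for all genes. Between the doses the values ran from −0.52 to 0.37. Under the fold threshold, Ptges3 was at −0.40 at 10 µM (adjusted p = 0.00859, edgeR) and at −0.48 between the doses (adjusted p = 0.00202, edgeR). Hsp90aa1 was at −0.52 between the doses (adjusted p = 0.00404, edgeR).

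A wider list of 25 AhR targets held no member, and 19 of them passed the filter. At 2 µM 1 was lower (0.378% of all genes). At 10 µM 2 were higher and 1 lower (1.95% and 1.14% of all genes), and from 2 to 10 µM the same 2, Xdh and Fgf21, were higher (3.92%). An unadjusted p under 0.05 in edgeR's test was found for 6, 13 and 11 of the 19 in these comparisons. The share of all genes at that cut is not given, so these counts are not read as a result about AhR targets. Fos, an immediate early factor, was at 8.08, 9.05 and 8.28 CPM at 0 µM, at 2.11, 2.12 and 3.62 CPM at 2 µM and at 4.39 and 3.02 CPM at 10 µM. Fos had a log2 fold change of −1.65 at 2 µM (adjusted p = 0.00218, edgeR) and of −1.18 at 10 µM (adjusted p = 0.00489, edgeR), opposite in sign to those of the 6 targets. Both calls were lost without the second or the third untreated library. The call at 2 µM was also lost without the first or the second 2 µM library. The call at 10 µM was also lost without either 10 µM library and with a replicate block. Xdh, the xanthine dehydrogenase gene, rose at 10 µM by 1.18 (adjusted p = 1.76e-05, edgeR) and was at 0.27 at 2 µM (adjusted p = 0.0999). Fgf21, a secreted metabolic hormone, had 0, 1 and 3 counts at 0 µM and 16 and 11 at 10 µM, and passed the filter on low counts through the 10 µM libraries, where it is high. Its pooled ratio was 14.2 with an exact 95% counting interval of 4.94 to 55.8, and its call at 10 µM was lost without the second untreated or either 10 µM library. The call of Fgf21 between the doses was lost without the second or the third untreated library, any 2 µM or either 10 µM library. It was also lost without a filter and with a replicate block. The median log2 fold change of the 19 was 0.11 at 2 µM and 0.20 at 10 µM, beside −0.01 and 0.02 for all genes. Cyp1a2, the liver relative of Cyp1a1, was at 3 to 6 counts and was not tested.

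**Figure D4:**
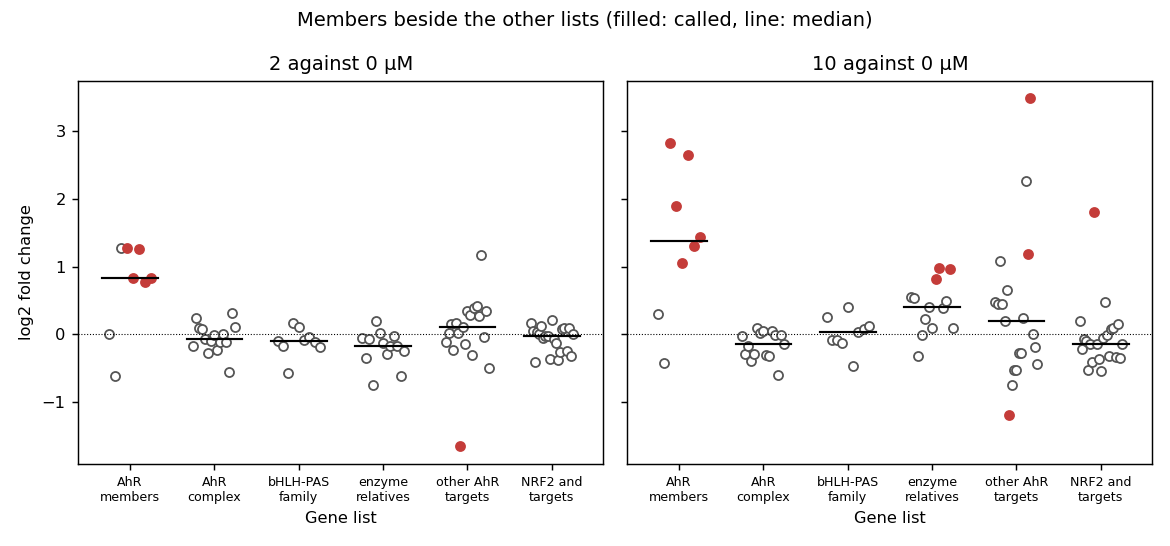
log2 fold change (y axis) at 2 µM (left) and 10 µM (right) of the tested genes of 6 lists (x axis). Filled points passed the DEG threshold, lines are medians, and the members are left out of the other lists. The median of the members is 0.83 at 2 µM and 1.37 at 10 µM, and the medians of the other lists lie between −0.17 and 0.40. As the members were chosen on these doses, nothing is read from that difference.

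Nqo1 is also a member of the NRF2 list. Of the other 21 genes of the NRF2 list, all of which passed the filter, none was a DEG at 2 µM (edgeR gave 5 with an unadjusted p under 0.05 and DESeq2 called 0), and 1 was at 10 µM, Slc7a11, the cystine transporter gene (1.80, adjusted p = 4.22e-07, edgeR's quasi-likelihood test). The DEG counts are near the shares of all genes, 0.497% and 3.09%. For the 5 with an unadjusted p under 0.05, no share of all genes is given, and nothing is read from them. The median log2 fold change of the 21 was −0.02 at 2 µM and −0.13 at 10 µM, beside −0.01 and 0.02 for all genes. Slc7a11 was at −0.02 at 2 µM, where Nqo1 was at 0.77. Gclm, for the modifier subunit of glutamate-cysteine ligase, was at 0.01 and −0.53 at the 2 doses, and Srxn1, the sulfiredoxin gene, at −0.06 and −0.41. Txnrd1 was at 0.12 and −0.14, and Hmox1 at −0.40 and −0.06. None of them was a DEG, but Srxn1 at 10 µM (adjusted p = 0.00601, edgeR) missed the fold threshold only. Between the doses this held for Gclm (−0.53, adjusted p = 0.00718, edgeR) and Srxn1 (−0.35, adjusted p = 0.00805, edgeR). Gsr, the glutathione reductase gene, was lower at 10 than at 2 µM (−0.75, adjusted p = 8.28e-05, edgeR). Against untreated at 10 µM, Gsr was at −0.54 (adjusted p = 0.00103, edgeR), under the fold threshold. Gsta4, at 0.47 against untreated at 10 µM (adjusted p = 0.0205), was higher at 10 than at 2 µM (0.60, adjusted p = 0.00405). The call of Gsta4 was lost without any library other than the third untreated one. It was also lost with DESeq2, with or without its prior, without a filter and with a replicate block. Nfe2l2, which encodes NRF2, was at 0.17 and 0.20. The difference between Nqo1 and these genes was not tested, as Nqo1 was chosen for its change.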

How the data were processed

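RNA-Seq was performed by the authors on ribo-depleted, strand-specific libraries of MEFs (0 µM, n = 3; 2 µM, n = 3; 10 µM, n = 2). Per the labels, reads were trimmed with Trim Galore and cutadapt, aligned to mm10 with STAR 2.5.2a and counted with featureCounts, and the authors deposited the raw counts per gene without normalization. The strand setting and the annotation were not given in the sources used here. Gene positions came from GENCODE M21 of GRCm38, which matched 23334 of 24460 symbols. Depth was 10455965 to 26688121 counts per library.

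All 8 libraries entered 1 edgeR 4.0.16 fit in R 4.3.3, with dose as factor, TMM scaling, the filterByExpr filter and the quasi-likelihood test, and p-values were adjusted by Benjamini-Hochberg across the 14296 genes that passed. A DEG changed more than 1.5-fold at an adjusted p below 0.01. The SE of a log2 fold change is its size over the square root of F. Pseudocounts were 2 for log2 CPM and 0.5 for count ratios. Alternatives included DESeq2 1.42.0, other scalings and filters, and each library left out. The fits were tested on simulated data. Other steps used Python 3.11.15.

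The 9 genes and all lists were chosen with earlier results of these data known. Named genes are the 9 members, all tested enzyme relatives and bHLH-PAS genes, the DEGs of the lists of the receptor complex, other AhR targets and NRF2 targets (at most 6 per list) and the 5 nearest profiles to Cyp1b1 and to Nqo1. Gclm, Srxn1, Txnrd1, Hmox1, Nfe2l2, Cyp1a2, Pdgfrb, Ereg, Epha2, Hsp90aa1, Ptges3 and Serpinb2 are outside that rule and were chosen after their values were seen. Adh6b, on the list of relatives, was not analysed here.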

Additional observations from a re-analysis of the deposited data

Results flagged for a closer look

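In 11 of the 106 tested genes on the lists, all 2 µM libraries lay on one side of all untreated libraries and all 10 µM libraries on the other, as in 7.39% of all 14296 genes. None of the 9 members was among them. As the genes were picked for this separation, the differences between the doses are given as values and were not tested independently of it. On the log2 scale and at 10 against 2 µM, Parp14 was 1.57 higher, Parp10 1.15, Aldh3b1 0.88 and Parp12 0.67. The others were lower at 10 µM, with Serpinb2 at −0.88, Gsr at −0.75, Ereg at −0.55, Epha2 at −0.53, Hsp90aa1 at −0.52, Clock at −0.30 and Txnrd1 at −0.26.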

How the results depend on the processing

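Among all genes, the number of DEGs moved from 71 to 109 with DESeq2 and 107 with no minimum fold change at 2 µM, from 442 to 904 with total counts and 747 with no minimum fold change at 10 µM, and from 788 to 1539 with no minimum fold change between the doses. Among the members, the 4 calls between the doses became 2 without a filter, 2 with at least 10 counts in every library (which removes Cyp1a1 and Aldh3a1), 1 with DESeq2 and 1 with its prior on fold changes; where not stated, the cause was not tested. Of the other AhR targets, the 3 calls at 10 µM became 5 with total counts, and the 2 between the doses became 1 with at least 10 counts and 4 with no minimum fold change. The main fit had 2 higher and 0 lower between the doses. Without a filter and with DESeq2 there were 1 higher and 2 lower, and with no minimum fold change 2 higher and 2 lower.

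Leaving out each library in turn gave 6 to 144 DEGs at 2 µM (6 without the second 2 µM library, 144 without the first untreated one), 235 to 633 at 10 µM and 444 to 884 between the doses. It gave 2 to 5, 6 to 6 and 1 to 4 members, and 0 to 1, 1 to 4 and 1 to 3 other AhR targets, in the same order. With 1 library left at 10 µM, that library was assumed to vary like the others. Deviations of same-numbered libraries of 0 and 2 µM had correlations of 0.199, 0.0845 and 0.161, above those of differently numbered ones (−0.154 to 0.0584). Same-numbered pairs with 10 µM had −0.145 to −0.0212, but the deviations of the 2 libraries at 10 µM mirror each other. These values do not settle whether the numbers mark pairs. The main fit did not take them as pairs, and a block on the replicate number was an alternative. A replicate block gave 54, 322 and 735 DEGs, 4, 6 and 2 members and 1, 2 and 1 other AhR targets.

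Promoter shares over the 250 bases before the start alone were 28.2% for GCGTG, 4.10% for TNGCGTG, 10.2% for TGACNNNGC and 16.7% for the G4 motif. Depth limits Cyp1a1, Ahrr and Fgf21, and n = 2 limits 10 µM.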
